A study of Arabidopsis thaliana with 12 samples.

Results

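MSRB5 and the peroxidase genes AT2G38380 and AT4G37520 encode enzymes that deal with oxidants, and they were followed in shoot apices of Arabidopsis thaliana over the first days under long light periods. The members are all probe sets that the platform annotation pairs with 1 of these 3 genes alone: 12166_i_at for MSRB5, 16461_i_at and 16462_s_at for AT2G38380, and 17930_s_at for AT4G37520. They are 3 of the 3602 genes with a probe set of their own and 4 of the 8297 probe sets on the array. The genes were chosen by these same values, because earlier results of these data showed them lower after long days, so every difference between days below describes the members and is given without a test. The description "a fall over days 0, 2 and 4" held for MSRB5 and AT4G37520, but not for AT2G38380, which was about as high or higher on day 2 than on day 0 and lower only on day 4.

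Plants grew for 30 days at 21 °C with 9 h of light and 15 h of dark, then under 16 h of light and 8 h of dark, and apices were taken 0, 2 and 4 days after the move. The 4 genotypes share the Col-0 background. FRI(Sf-2)-FLC(Col) has a working FRI, introgressed from Sf-2, with an intact FLC; FRI(Sf-2)-flc-3 has the same FRI and the flc-3 deletion of FLC; fri(Col)-flc-3 has only the deletion; and fri(Col)-FLC(Col) is the Col-0 wild type, whose FRI is inactive. Each genotype and day has 1 array, 12 in all, so there is no replicate within a group: a mean ± SD over genotypes or days below is spread between arrays of different genotypes or days, which need not be independent cultures. FRI raises FLC, a repressor of flowering. The annotation pairs no probe set with FRI or FLC alone, so the genotypes were not checked on these genes. No array shows plants that stayed in short days, and the labels give no hour of harvest, so long days, plant age and the occasion of harvest cannot be told apart.

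Methionine residues of proteins are oxidised to methionine sulfoxide by reactive oxygen species, and methionine sulfoxide reductases reverse this, with MSRA and MSRB enzymes each acting on 1 stereoisomer of the sulfoxide. MSRB5 is a plant MSRB enzyme. AT2G38380 and AT4G37520 belong to the class III peroxidases, a large plant family of secreted haem enzymes that use hydrogen peroxide to oxidise phenolic compounds and other substrates in the cell wall, and that are known for roles in wall stiffening, lignin formation and defence. By locus name MSRB5 (AT4G04830) and AT4G37520 lie on chromosome 4 and AT2G38380 on chromosome 2. In the RefSeq gene table MSRB5 stands in a row of related genes, with MSRB3 and MSRB4 on one side and MSRB6 on the other. AT2G38380 is next to the peroxidase gene AT2G38390, and AT4G37520 next to the peroxidase gene AT4G37530. In the array maker's naming, an "s" in a probe set name marks probes that can match several related transcripts and an "i" a set with fewer probes than usual. How far each member's probe set also reads its neighbours was not tested, because the probe sequences were not used here.

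As a check of the tissue label, 1 of 11 meristem genes listed as markers had a probe set, UFO, at 3.36 to 4.07 (log2) on the 12 arrays, or the 21.5th to 32.5th percentile of an array's probe sets, with day means of 3.50, 3.51 and 3.75 on days 0, 2 and 4. The means of days 0 and 2 lay below 3.56, the value of the low-value filter used below, so UFO did not bear out the label. Of 8 leaf genes 1 had a probe set, RCA (Rubisco activase), at 10.40 to 11.24, or the 97.2nd to 98.9th percentile. Its day means of 10.86, 11.004 and 10.53 on days 0, 2 and 4 were highest on day 2 and lowest on day 4, as those of AT2G38380 were, while UFO was highest on day 4. None of the 8 root and 5 vascular marker genes listed had a probe set of its own. The part of tissue make-up in the results was not tested, and in such bulk samples fewer cells of a type and less RNA per cell cannot be told apart. The array of FRI(Sf-2)-flc-3 on day 2 stood apart in its BioB hybridisation controls, at 9.53 against 7.13 to 7.79 on the other 11, and in its residual spread over the probe sets, 0.165 against 0.0969 to 0.132. Results without it are given in the closing section.

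MSRB5 was lower on day 2 than on day 0 and lower again on day 4 in each of the 4 genotypes. On days 0, 2 and 4 it measured 7.76, 5.75 and 4.69 (log2) in FRI(Sf-2)-FLC(Col). It measured 7.54, 5.65 and 3.81 in FRI(Sf-2)-flc-3. It measured 7.93, 5.95 and 4.69 in fri(Col)-flc-3 and 8.35, 5.64 and 4.44 in fri(Col)-FLC(Col). The 3 days did not overlap: the 4 arrays lay between 7.54 and 8.35 on day 0, between 5.64 and 5.95 on day 2, and between 3.81 and 4.69 on day 4. On day 0 the wild type was highest, on day 4 FRI(Sf-2)-flc-3 was lowest, and on day 2 the genotypes were closest together, with a mean of 5.75 ± 0.14 (SD over 4 genotypes).

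The day 2 minus day 0 difference of MSRB5 was -2.14 ± 0.38 (SD, n = 4 genotypes, log2), a level 4.42 times lower. By day 4 the difference from day 0 was -3.49 ± 0.40, or 11.2 times lower, of which -1.34 ± 0.35 came between day 2 and day 4. The larger part of the change was thus present on day 2 in each genotype: 65.4% in FRI(Sf-2)-FLC(Col), 50.5% in FRI(Sf-2)-flc-3, 61.0% in fri(Col)-flc-3 and 69.2% in fri(Col)-FLC(Col), on the log2 scale. Counted from the most negative among the 6185 probe sets above the filter on low values, MSRB5 held position 2 for day 2 minus day 0, position 4 for day 4 minus day 0 and position 16 for day 4 minus day 2. On its own array it lay between the 80.6th and 87.7th percentile of probe sets on day 0 and between the 29.4th and 41.1st on day 4, so its day 4 values lie among the dim probe sets, where a difference on an array can be understated. The deposited table has no detection call.

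**Figure D1:**
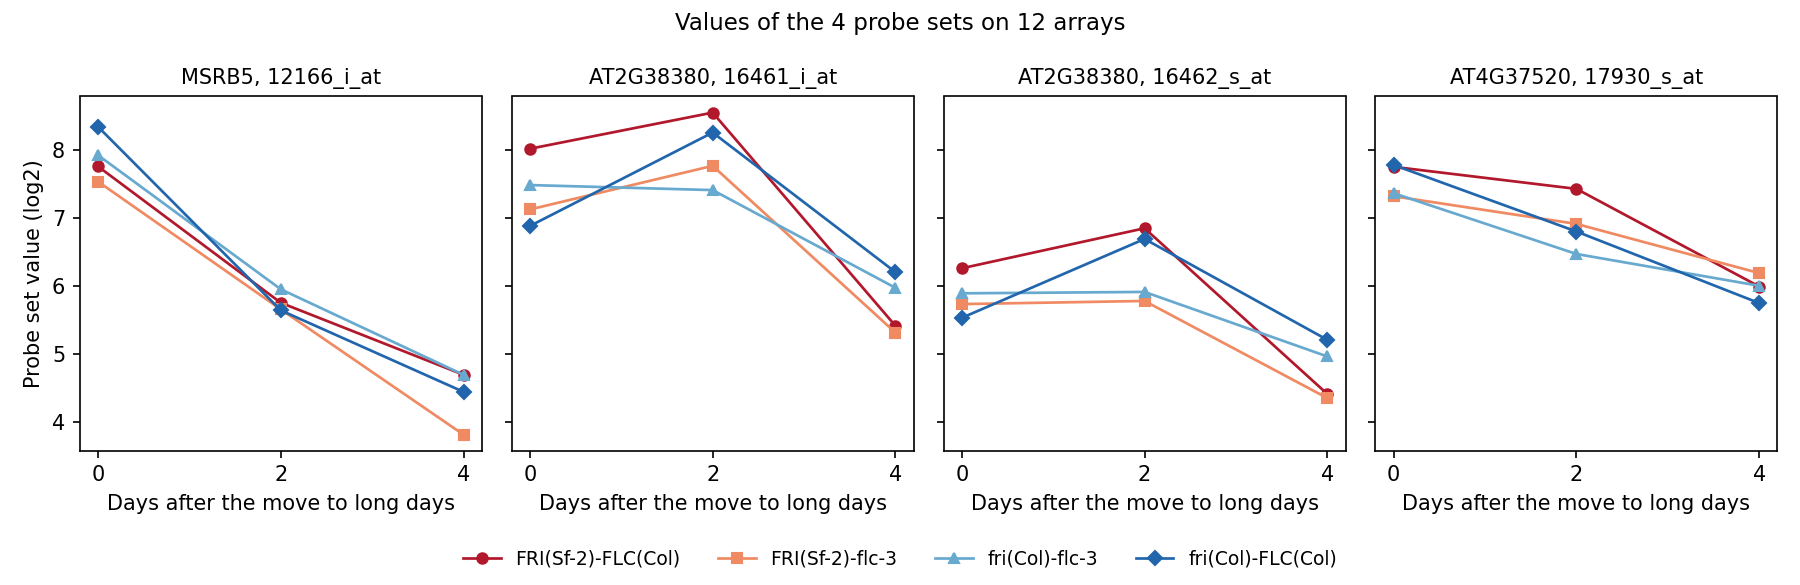
Probe set values (log2, y axis) of MSRB5, AT2G38380 (both probe sets) and AT4G37520 on 0, 2 and 4 days after the move to long days (x axis), each point 1 array and each line 1 genotype. MSRB5 and AT4G37520 step down from day 0 to 2 and from 2 to 4 in each genotype, while AT2G38380 peaks or stays level on day 2 and is lowest on day 4; levels of different probe sets are not comparable.

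AT2G38380 had another time course. On 16461_i_at it measured 8.02, 8.55 and 5.41 (log2) on days 0, 2 and 4 in FRI(Sf-2)-FLC(Col). It measured 7.13, 7.77 and 5.31 in FRI(Sf-2)-flc-3. It measured 7.49, 7.41 and 5.97 in fri(Col)-flc-3 and 6.88, 8.26 and 6.20 in fri(Col)-FLC(Col). Day 2 was therefore higher than day 0 in 3 of the 4 genotypes and 0.07 lower in fri(Col)-flc-3, and the 2 days overlapped, at 6.88 to 8.02 on day 0 and 7.41 to 8.55 on day 2. All 4 arrays of day 4, at 5.31 to 6.20, lay below all arrays of days 0 and 2.

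The other probe set, 16462_s_at, was likewise lowest on day 4 in each genotype. It measured 6.26, 6.85 and 4.41 in FRI(Sf-2)-FLC(Col) and 5.73, 5.78 and 4.35 in FRI(Sf-2)-flc-3. It measured 5.89, 5.91 and 4.96 in fri(Col)-flc-3 and 5.53, 6.69 and 5.21 in fri(Col)-FLC(Col). On this probe set FRI(Sf-2)-flc-3 was nearly level between days 0 and 2, with a difference of 0.05 against 0.64 on 16461_i_at, while FRI(Sf-2)-FLC(Col) was higher on day 2 by 0.59, against 0.53 on 16461_i_at. Here too the days 0 and 2 overlapped and day 4, at 4.35 to 5.21, lay below both.

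For AT2G38380 the day 2 minus day 0 difference was 0.62 ± 0.60 (SD, n = 4 genotypes) on 16461_i_at and 0.45 ± 0.54 on 16462_s_at, so the mean was about the size of the spread between genotypes. It ran from -0.07 in fri(Col)-flc-3 to 1.38 in fri(Col)-FLC(Col) on 16461_i_at and from 0.02 to 1.16, in the same 2 genotypes, on 16462_s_at. Without the wild type's day 0 or day 2 array the mean was 0.37 on 16461_i_at and 0.22 on 16462_s_at. The day 4 minus day 2 difference was -2.27 ± 0.71 and -1.58 ± 0.62, or 4.84 and 2.99 times lower. These were positions 2 and 7 from the most negative among 6185 probe sets. Against day 0, the day 4 difference was -1.66 ± 0.80 and -1.12 ± 0.65, and it was negative in all 4 genotypes on both probe sets.

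The genotypes differed in how far below day 0 the gene ended. On 16461_i_at the day 4 minus day 0 difference was -2.61 in FRI(Sf-2)-FLC(Col), -1.82 in FRI(Sf-2)-flc-3, -1.51 in fri(Col)-flc-3 and -0.68 in fri(Col)-FLC(Col). On 16462_s_at it was -1.85, -1.38, -0.93 and -0.32 in that order of genotypes, so both probe sets ranked the genotypes alike. Each value rests on 1 array per day and both probe sets read the same RNA samples, so the shared ranking is no separate support for a genotype difference. FRI(Sf-2)-FLC(Col) had the highest day 0 level on both probe sets, at 8.02 and 6.26. The wild type had the lowest day 0 level of the 4 genotypes on both probe sets, and its day 4 level lay least far below day 0. Its day 2 minus day 0 difference was 1.38 on 16461_i_at and 1.16 on 16462_s_at. Between day 2 and day 4 it was -2.06 and -1.49, so a rise came before the step down.

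The probe sets of AT2G38380 agreed closely. Over the 12 arrays their values had a Pearson r of 0.98, and of their 12 day differences (3 in each genotype) 11 had the same sign. The exception was day 2 against day 0 in fri(Col)-flc-3, at -0.07 and 0.02. After the mean differences between genotypes and between days were removed, the residuals still had an r of 0.94. Both probe sets were read from the same 12 RNA samples and can share transcripts, so this agreement concerns the measurement and not the biological spread. The largest gap between them in a day difference was 1.03, on day 4 against day 2 in FRI(Sf-2)-flc-3, where 16461_i_at gave -2.46 and 16462_s_at -1.43.

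The neighbouring gene AT2G38390, a class III peroxidase too, was measured by 16963_at. On days 0, 2 and 4 it measured 5.99, 5.83 and 4.43 in FRI(Sf-2)-FLC(Col), and 5.40, 5.37 and 4.36 in FRI(Sf-2)-flc-3. It measured 5.74, 5.17 and 4.61 in fri(Col)-flc-3 and 5.53, 5.81 and 4.20 in fri(Col)-FLC(Col). Like AT2G38380 it was lowest on day 4, with all 4 arrays of that day below the others. In fri(Col)-flc-3, 50.2% of its change to day 4 was already present on day 2 (log2 scale). In the same order of genotypes, its day 2 minus day 0 difference was -0.16, -0.04, -0.57 and 0.28. The mean of -0.12 ± 0.35 (SD) did not pass (limma adjusted p = 0.681), while day 4 minus day 2 was -1.14 ± 0.46. Its r with 16461_i_at was 0.90 over the 12 arrays, and 0.61 for the residuals after genotype and day.

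**Figure D2:**
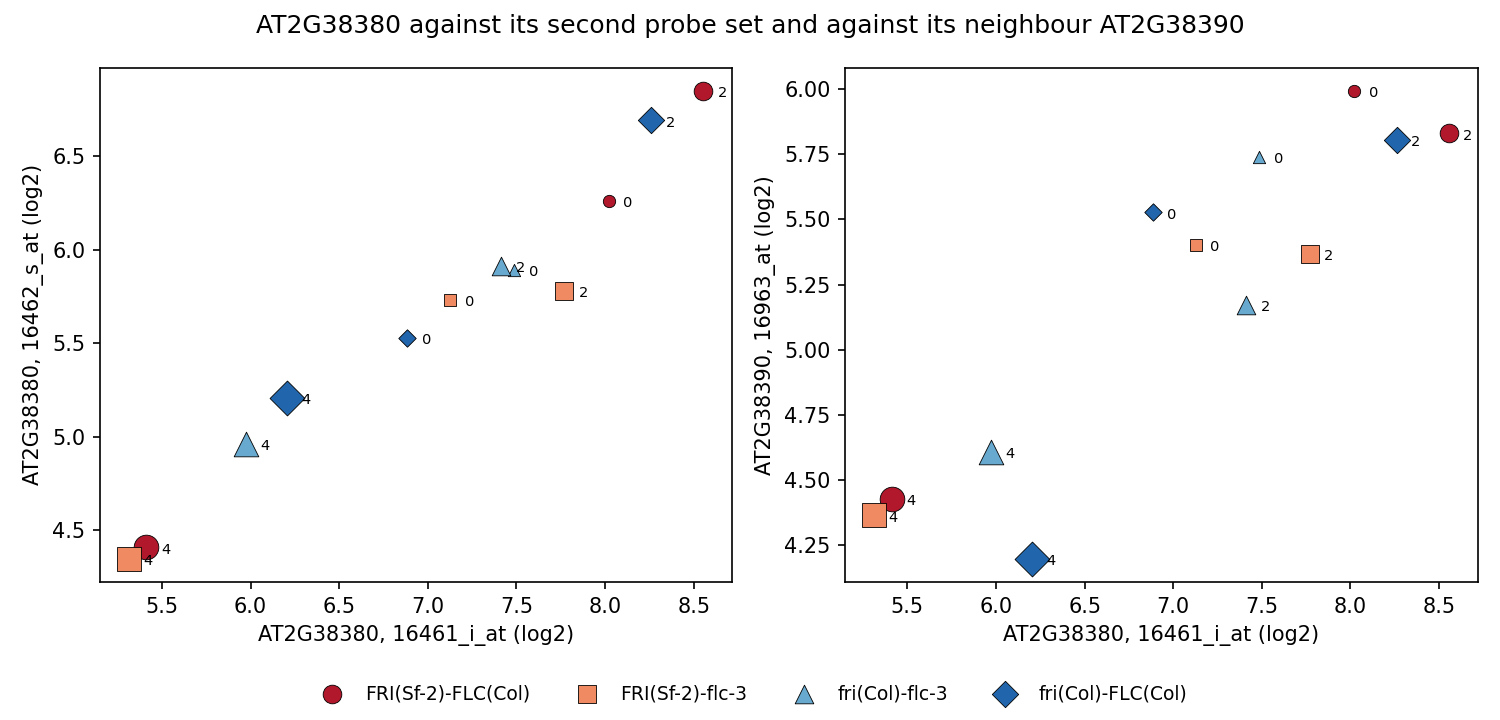
Values on the 12 arrays of 16461_i_at of AT2G38380 (x axis, log2) against 16462_s_at of the same gene (left, y axis, log2) and against 16963_at of the neighbouring gene AT2G38390 (right, y axis, log2); colour and shape give the genotype, and size and number the day. The points of the left panel lie near a line (r = 0.98), and in both panels the 4 arrays of day 4 lie lowest.

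AT4G37520 was lower at each step in each genotype. On days 0, 2 and 4, 17930_s_at measured 7.76, 7.43 and 5.99 (log2) in FRI(Sf-2)-FLC(Col). It measured 7.32, 6.91 and 6.19 in FRI(Sf-2)-flc-3. It measured 7.37, 6.47 and 6.002 in fri(Col)-flc-3 and 7.78, 6.80 and 5.75 in fri(Col)-FLC(Col). The arrays of day 0 (7.32 to 7.78) and day 2 (6.47 to 7.43) overlapped through the day 2 array of FRI(Sf-2)-FLC(Col), and those of day 4 (5.75 to 6.19) lay below all others.

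The mean differences of AT4G37520 were -0.65 ± 0.33 (SD, n = 4 genotypes) for day 2 minus day 0, -0.92 ± 0.42 for day 4 minus day 2 and -1.57 ± 0.40 for day 4 minus day 0, the last being 2.98 times lower. The timing was less even than that of MSRB5. On day 2 the gene had made 18.4% of its change to day 4 in FRI(Sf-2)-FLC(Col), 36.0% in FRI(Sf-2)-flc-3, 65.7% in fri(Col)-flc-3 and 48.2% in fri(Col)-FLC(Col) (log2 scale). More than 50% of the change thus came after day 2 in 3 of the 4 genotypes, all but fri(Col)-flc-3. The gene was read by a single probe set, so there was no other set of probes for it to be compared with.

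**Figure D3:**
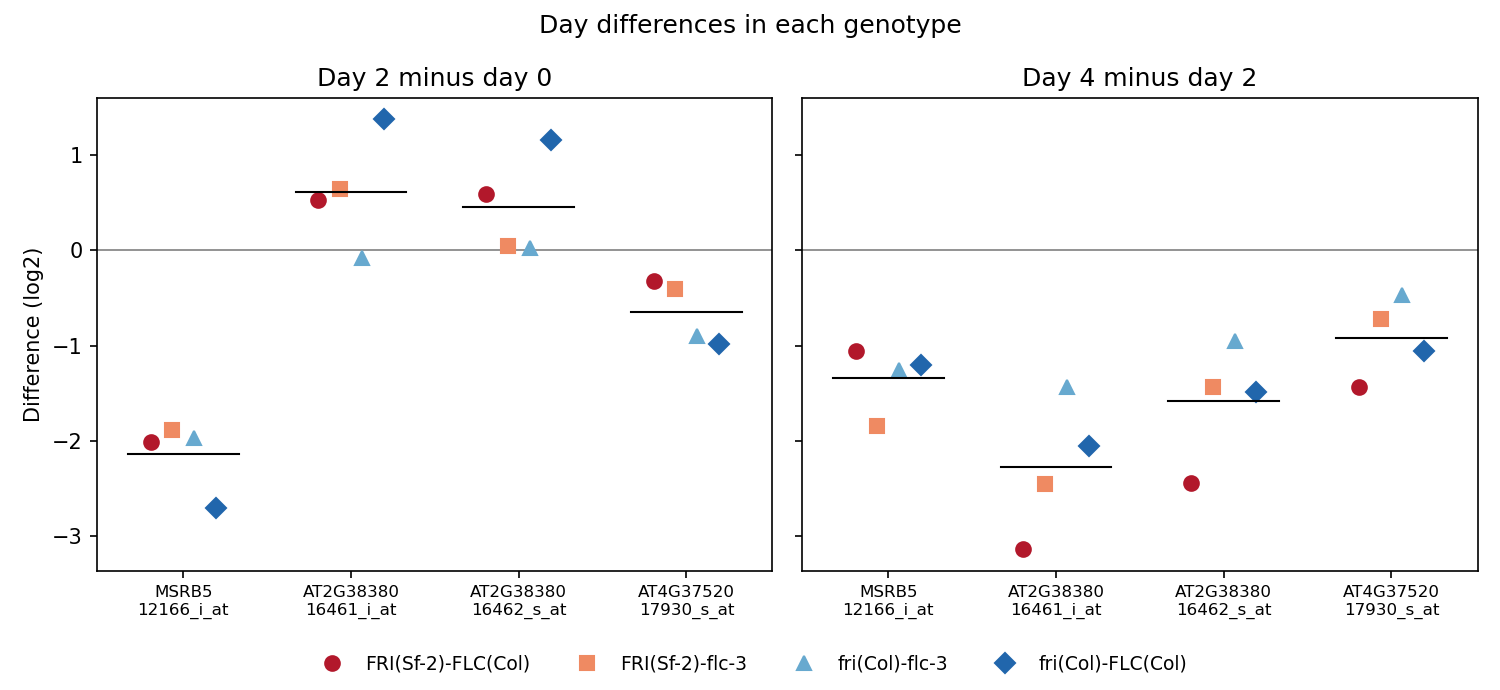
Day 2 minus day 0 (left) and day 4 minus day 2 (right) for each probe set (x axis), as a log2 difference (y axis); points are the 4 genotypes and the black bar their mean. Every difference of MSRB5 and AT4G37520 is below 0 in both panels, while those of AT2G38380 run from -0.07 to 1.38 on the left and from -3.14 to -0.95 on the right; both panels use the day 2 arrays.

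Differences between genotypes were not used to choose the genes and were tested with limma, across all 6185 probe sets, with Benjamini-Hochberg adjustment. Over the days, MSRB5 averaged 6.07, 5.67, 6.19 and 6.14 in FRI(Sf-2)-FLC(Col), FRI(Sf-2)-flc-3, fri(Col)-flc-3 and fri(Col)-FLC(Col). In the same order AT2G38380 averaged 7.33, 6.74, 6.96 and 7.12 on 16461_i_at and 5.84, 5.29, 5.59 and 5.81 on 16462_s_at. AT4G37520 averaged 7.06, 6.81, 6.61 and 6.78.

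FRI(Sf-2)-FLC(Col), the only genotype with active FRI and intact FLC, was first compared with the mean of the other 3. None of the 4 member probe sets passed (0.76% of all tested probe sets did). AT4G37520 differed by 0.33 ± 0.14 (SE, log2), with a limma adjusted p of 0.448. AT2G38380 differed by 0.39 ± 0.25 and 0.28 ± 0.21 on its probe sets, and MSRB5 by 0.07 ± 0.14.

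The effect of the flc-3 deletion was taken next. With active FRI, FRI(Sf-2)-flc-3 minus FRI(Sf-2)-FLC(Col), all 4 differences were negative and 0 of 4 passed (0.146% over all tested probe sets). They were -0.40 ± 0.17 (SE) for MSRB5, -0.59 ± 0.30 and -0.55 ± 0.26 for AT2G38380 and -0.25 ± 0.18 for AT4G37520, with limma adjusted p-values from 0.379 to 0.583. With inactive FRI, fri(Col)-flc-3 minus fri(Col)-FLC(Col), they ran from -0.22 to 0.05 and again 0 of 4 passed (0.0162% over all). The interaction, the deletion effect with active FRI minus that with inactive FRI, ran from -0.45 to -0.09 and 0 of 4 passed (0.0323% over all).

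For the Sf-2 allele of FRI, the effect without FLC, FRI(Sf-2)-flc-3 minus fri(Col)-flc-3, was -0.52 ± 0.17 (SE) for MSRB5, with a limma adjusted p of 0.416 and a 95% confidence interval from -0.90 to -0.15 that is not adjusted for the number of probe sets. MSRB5 was lower in FRI(Sf-2)-flc-3 than in fri(Col)-flc-3 on each of the 3 days. The peroxidase probe sets differed by -0.30 to 0.20 there, and 0 of the 4 members passed (0.0808% over all). With FLC intact, FRI(Sf-2)-FLC(Col) minus fri(Col)-FLC(Col), the 4 differences ran from -0.07 to 0.28, and 0 of 4 passed (0.178% over all).

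Whether the time course itself differed in FRI(Sf-2)-FLC(Col) was tested with day terms of its own for that genotype. On 16461_i_at the day 4 response of AT2G38380 was -2.61 in FRI(Sf-2)-FLC(Col), against -1.34 ± 0.59 (SD) in the other 3 genotypes, a difference of -1.27 ± 0.48 (SE). On 16462_s_at it was -1.85 against -0.88 ± 0.53, a difference of -0.97 ± 0.41. In both cases FRI(Sf-2)-FLC(Col) lay outside the range of the others, but neither passed (limma adjusted p = 0.9999 for each, unadjusted 0.0234 and 0.0394), as 0.0162% of probe sets did. MSRB5 went the other way, at -3.07 against -3.63 ± 0.35, a difference of 0.55 ± 0.33. For AT4G37520 the values were -1.76 and -1.51 ± 0.47. None of the 4 members passed for the day 2 response either, where no probe set of the array did (0%, with 105 at an unadjusted p under 0.05 in limma).

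The step between day 2 and day 4 was compared in the same way after its values had been seen. In FRI(Sf-2)-FLC(Col) it was -3.14 and -2.44 on the probe sets of AT2G38380 and -1.44 for AT4G37520. In the other 3 genotypes it was -1.99 ± 0.51 (SD), -1.29 ± 0.29 and -0.75 ± 0.29, so the 3 peroxidase probe sets were each most negative in FRI(Sf-2)-FLC(Col). These probe sets were read from the same arrays, and those of AT2G38380 read the same gene, so they are not separate observations. The differences of -1.16 ± 0.48 (SE), -1.15 ± 0.41 and -0.69 ± 0.32 did not pass (limma adjusted p = 0.9998 for each, unadjusted 0.0356, 0.0184 and 0.0568). No probe set of the array passed this comparison (0%, with 202 at an unadjusted p under 0.05). MSRB5 gave 0.38 ± 0.33. Over the 8 comparisons planned and the 4 member probe sets, 0 of 32 tests passed in limma and 5 had an unadjusted p under 0.05. In these comparisons 105 to 729 of all 6185 probe sets had an unadjusted p under 0.05 in limma. The 5 are not separate: they include both probe sets of AT2G38380 for the day 4 response. They also include MSRB5 in FRI(Sf-2)-flc-3 against fri(Col)-flc-3 and against FRI(Sf-2)-FLC(Col), which share arrays. The 95% confidence interval for the day 4 response of 16461_i_at ran from -2.34 to -0.21 without adjustment, so even a difference of that size did not pass with 1 array per group.

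**Figure D4:**
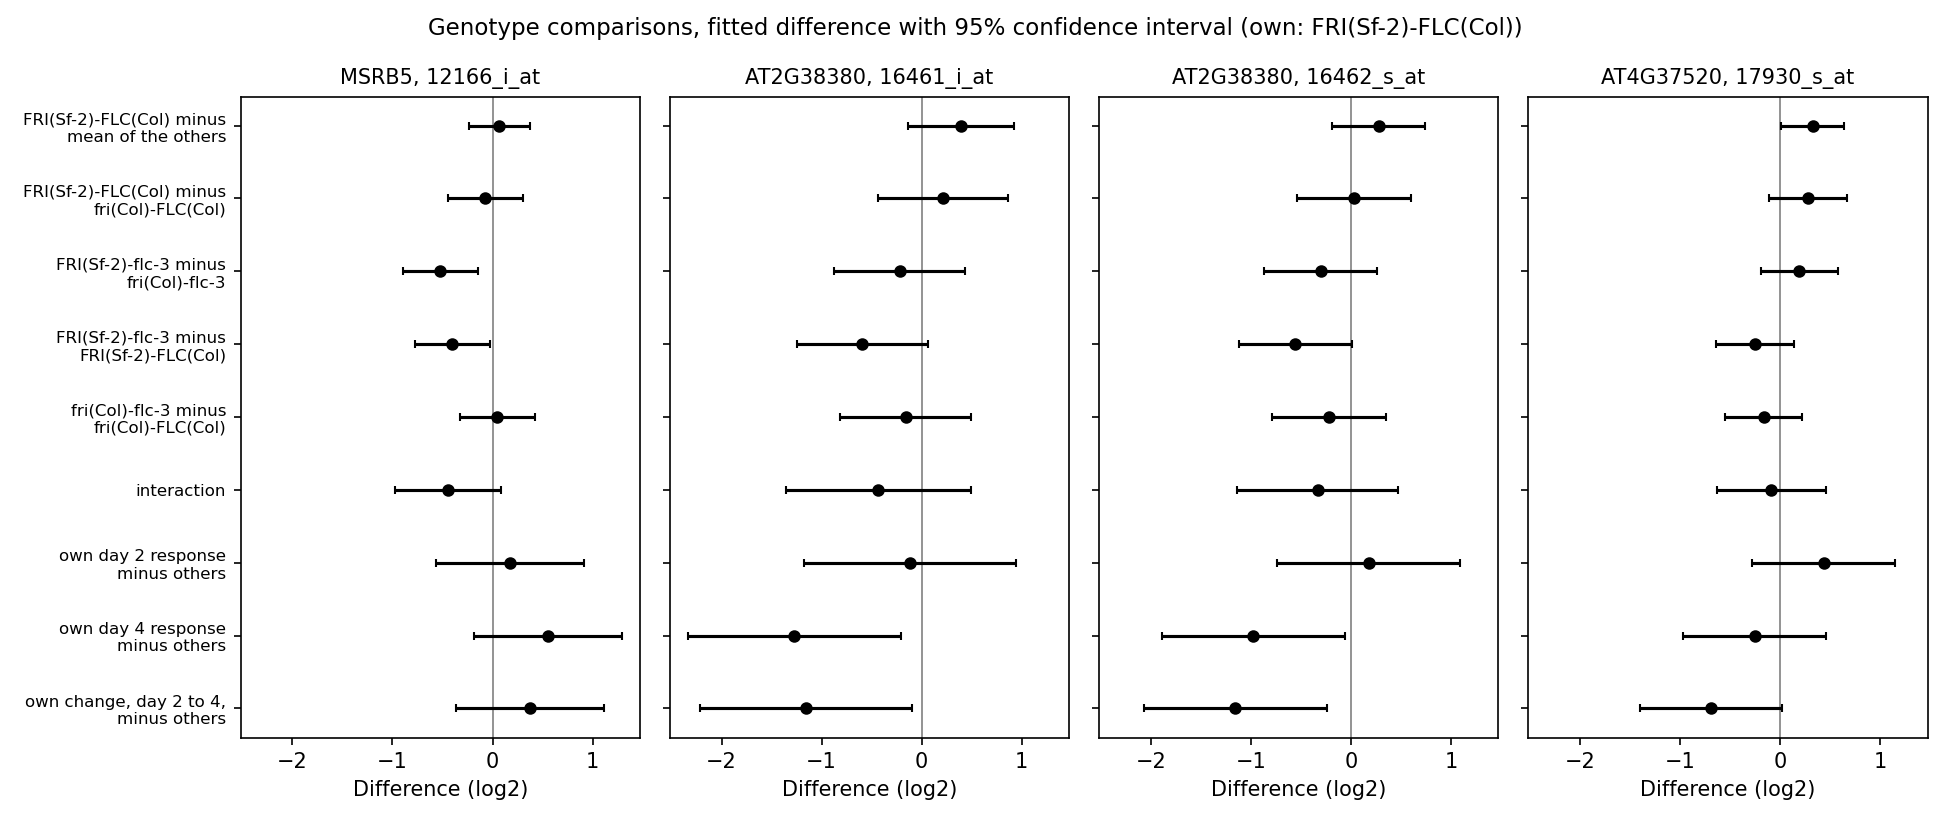
Fitted differences between genotypes (x axis, log2, points) with 95% confidence intervals not adjusted for the number of probe sets (bars), for the 4 probe sets (panels) and 9 comparisons (rows); "own" is FRI(Sf-2)-FLC(Col) and "others" the mean of the other 3 genotypes. None passed the adjusted threshold, and the intervals of the last 3 rows are the widest, since they rest on single arrays.

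The other class III peroxidases show how common such courses were in the family. Of 73 genes listed, 46 had a probe set of their own; apart from AT2G38380 and AT4G37520 there were 44 genes with 48 probe sets, of which 29 probe sets of 27 genes passed the filter on low values and were tested over days. On day 2 against day 0, 5 probe sets rose, 2 fell and 22 did not pass, 24.1% called against 10.7% of all tested probe sets (4.8% up and 5.89% down). The list median was 0.11 log2 against 0.00 for all. On day 4 against day 0, 2 rose, 6 fell and 21 did not pass (27.6% against 18.3%, or 8.78% up and 9.49% down), with a median of -0.10 against 0.04. On day 4 against day 2, 0 rose, 5 fell and 24 did not pass (17.2% against 4.35%, or 1.63% up and 2.72% down), with a median of -0.11 against 0.03. These counts leaned on single arrays: 3 rather than 5 rose by day 2 without the day 0 array of FRI(Sf-2)-flc-3, the day 2 array of FRI(Sf-2)-FLC(Col) or either of these days of fri(Col)-FLC(Col). Without the wild type's day 0 array 1 fell by day 2, and without the day 4 array of FRI(Sf-2)-FLC(Col) 3 fell between day 2 and day 4.

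The peroxidase genes that rose by day 2 were AT4G36430, AT2G18150, AT3G21770 and AT5G64120. AT4G36430 rose by 0.96 ± 0.15 (SE, limma adjusted p = 0.00157) and then fell by 1.68 ± 0.15 between day 2 and day 4 (limma adjusted p = 0.000148). In the 4 genotypes it lay between 5.25 and 5.78 on day 0, between 6.47 and 6.70 on day 2 and between 4.53 and 5.38 on day 4. AT2G18150 rose by 0.55 ± 0.14 and then fell by 1.37 ± 0.14, a course close to that of AT2G38380. On days 0, 2 and 4 it measured 7.44, 8.04 and 6.21 in FRI(Sf-2)-FLC(Col), against 6.95, 7.79 and 6.55 in fri(Col)-FLC(Col).

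AT3G21770 rose by 0.60 ± 0.11 and 0.52 ± 0.10 on its 2 probe sets by day 2. On 19594_i_at it fell by 0.55 ± 0.11 afterwards, while the difference on 19595_s_at was -0.31 and did not pass. AT5G64120 rose by 0.38 ± 0.10 by day 2 and fell by 0.48 ± 0.10 after it. A rise on day 2 and a drop after it both rest on the day 2 arrays, so these are not separate observations. AT2G38390, described above, fell between day 2 and day 4 (limma adjusted p = 0.00115) and between day 0 and day 4 (limma adjusted p = 8.26e-05).

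Other members of the family went lower already by day 2, as AT4G37520 did. AT2G37130 fell by 0.79 ± 0.16 (SE) by day 2 and by 1.18 ± 0.16 by day 4, both against day 0, and AT4G11290 fell by 0.65 ± 0.14 and 0.86 ± 0.14. AT2G18980 fell by 0.34 ± 0.09 by day 4. Both AT4G11290 and AT2G18980 were dim, near the filter value of 3.56. On days 0, 2 and 4 the means were 4.34, 3.69 and 3.48 for AT4G11290 and 4.10, 3.81 and 3.75 for AT2G18980. In contrast, AT2G22420 rose by day 4, by 0.69 ± 0.13 and 0.66 ± 0.14 on its 2 probe sets. The 20 called differences of the family each had the same sign in all 4 genotypes. The test favours this, because disagreement between genotypes is part of its error. They are not separate observations either, since some share a gene and the day differences share arrays.

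**Figure D5:**
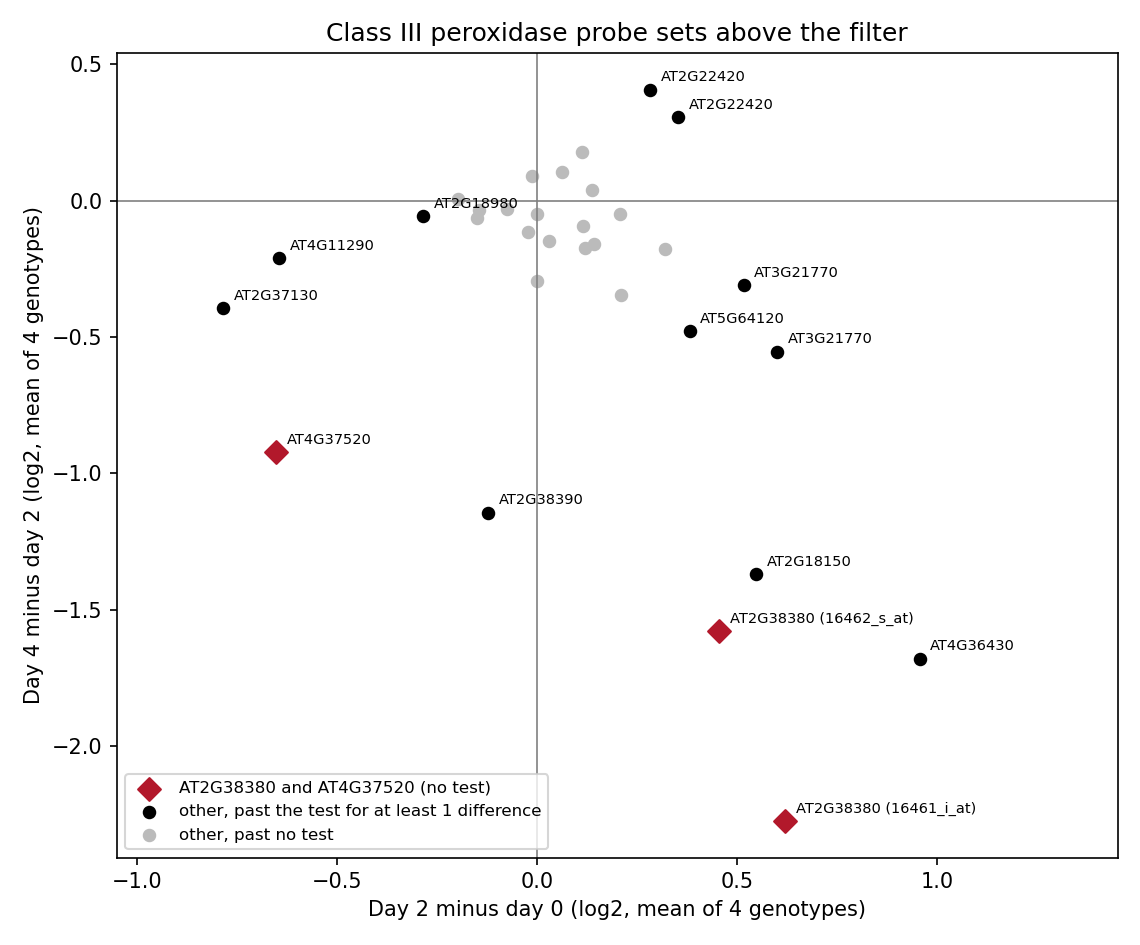
Class III peroxidase probe sets above the filter, by their day 2 minus day 0 (x axis) and day 4 minus day 2 difference (y axis), both log2 means over 4 genotypes; red diamonds are AT2G38380 and AT4G37520, black points passed the test for at least 1 of the 3 day differences and grey points for none. AT2G38380 lies at the lower right with AT2G18150 and AT4G36430, and AT4G37520 lies at the lower left.

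Among methionine sulfoxide reductases, 4 of 14 listed genes had a probe set of their own, MSRB5 and 3 others. MSRA5 and MSRB9 were tested and 0 of 2 passed for any day difference. Over all tested probe sets 10.7% passed for day 2 minus day 0, 18.3% for day 4 minus day 0 and 4.35% for day 4 minus day 2. The values were small: on day 4 against day 0, MSRA5 measured 0.19 ± 0.11 (SD over 4 genotypes) and MSRB9 0.26 ± 0.34. MSRB6, which follows MSRB5 on the chromosome, lay at 2.71 to 3.53 on all arrays, below the filter, and its mean day 4 minus day 0 difference was -0.05 ± 0.09.

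In the list of catalases, superoxide dismutases and enzymes of the ascorbate-glutathione cycle, 4 of 28 genes had a probe set of their own (5 probe sets, all tested). On day 2, 2 of 5 rose and 0 fell, where 4.8% of all tested probe sets rose and 5.89% fell. GR1, a glutathione reductase, rose by 0.44 ± 0.07 (SE) and SAPX, the stromal ascorbate peroxidase, by 0.44 ± 0.11. On day 4 against day 0, GR1 alone passed, at 0.23 ± 0.07 (limma adjusted p = 0.0494), 1 of 5 where 8.78% of all tested probe sets rose. GR1 passed in 1 of 12 fits that each left out an array (the FRI(Sf-2)-flc-3 array of day 2). Without the day 0 or the day 2 array of any genotype but FRI(Sf-2)-FLC(Col), 1 of these 5 probe sets rose by day 2. Among thiol peroxidases, thioredoxins and their reductases 4 of 37 genes were tested, and 1 of 4 probe sets rose on day 2 (4.8% over all). It was NTRC, a chloroplast thioredoxin reductase, higher by 0.36 ± 0.08, a call lost without the day 0 array of fri(Col)-flc-3 or of FRI(Sf-2)-flc-3. None of the tested probe sets of these 2 lists fell in any of the 3 differences. Over all tested probe sets 5.89% fell for day 2 minus day 0, 9.49% for day 4 minus day 0 and 2.72% for day 4 minus day 2. With 5 and 4 probe sets tested, no fall is near these shares. The only NADPH oxidase gene with a probe set, RBOHE, lay below the filter.

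For each gene the 5 named probe sets with the most similar values over the 12 arrays were found by Pearson r. All 12 arrays share the day differences, so a high r mostly says that a gene changed over the same days. MSRB5 was closest to GSTF3, a glutathione transferase gene (r = 0.96), AT2G25450, a dioxygenase gene of glucosinolate side chains (0.96), AT2G29310 (0.96), AT1G21670 (0.95) and the clock gene GI (0.95). Their day 4 minus day 0 differences ran from -3.70 in AT2G25450 to -1.21 in AT1G21670.

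AT2G38380, as the mean of its probe sets, was closest to AT2G18150 (0.98), AT4G38080 (0.93), AT2G38390 (0.90), AT4G36430 (0.89) and the osmotin gene OSM34 (0.88), so 3 of the 5 were peroxidase genes. Their mean day 4 minus day 0 differences ran from -1.46 in OSM34 to -0.72 in AT4G36430. Of the 2734 probe sets compared, 29 were of class III peroxidases other than the member genes. The probe sets of such related genes may read some of the same transcripts, which was not tested. AT4G37520 was closest to AT2G31790 (0.97), AT4G34600 (0.95), the sulfite reductase gene SIR (0.95), AT2G25450 (0.95) and AT2G43150 (0.95), all lower on day 4 than on day 0, by differences of -0.71 to -3.70. The r between the members was 0.89 for MSRB5 and AT4G37520, 0.54 for MSRB5 and 16461_i_at of AT2G38380, and 0.70 for 16461_i_at and AT4G37520. For the residuals after genotype and day these became 0.06, -0.56 and 0.14, against 0.94 between the probe sets of AT2G38380, as a description of these 12 arrays. The residuals of AT2G18150, whose r with AT2G38380 was 0.98 before that step, were not compared.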

How the data were processed

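RNA of shoot apices was measured on 12 one-colour oligonucleotide arrays. The values deposited by the authors, from 2.12 to 13.18, were taken as log2 because of their range; which software and normalization the authors used is not given in the sources used here. Array medians lay within 0.060 of each other, so no further normalization was applied. Precision is limited by the number of arrays.

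Genes came from the platform annotation (3794 probe sets with 1 gene, 70 with several, 4383 with none), matched by gene ID to the RefSeq table of assembly TAIR10.1; 3784 matched. Since the files name no genome build, no coordinates are given. Groups came from the sample titles. The 50 control probe sets were left out, and 6185 of 8247 others with a mean above the 25th percentile (3.56) were tested; all 4 members passed this filter.

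Linear models with moderated variances and a mean trend (limma 3.58.1, R 4.3.3) were tested two-sided, with adjustment over all 6185 probe sets at 0.05. Genotype and day entered as additive terms, which left 6 residual degrees of freedom; own day terms for FRI(Sf-2)-FLC(Col) left 4. The spread is what these models leave and mixes array noise with real differences in time course. The code was tested on simulated data.

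The genes and lists were chosen with earlier results of these data known. The genes named are all member probe sets, every called probe set of the redox lists (at most 12 per list and direction) and the 5 closest patterns per gene; related genes were taken from the RefSeq gene order, since protein identity was not used here. Genes without a single-gene probe set are not analysed here.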

Additional observations from a re-analysis of the deposited data

Results flagged for a closer look

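Day 2 against day 0 of AT2G38380 on 16461_i_at had opposite signs between genotypes, each read from 1 array per day: -0.0742 (log2) in fri(Col)-flc-3, against 0.53 in FRI(Sf-2)-FLC(Col), 0.64 in FRI(Sf-2)-flc-3 and 1.38 in fri(Col)-FLC(Col). The difference between fri(Col)-flc-3 and the other genotypes was not tested, and the gene's other probe set gave 0.02 in fri(Col)-flc-3.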

How the results depend on the processing

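The 12 mean day differences of the member probe sets kept their sign in all 168 recalculations (quantile normalization, median centring and leaving out each array) and moved by less than the SD between genotypes. MSRB5 ran from -2.23 to -1.96 for day 2 minus day 0 and AT2G38380 from 0.37 to 0.85 on 16461_i_at and from 0.22 to 0.60 on 16462_s_at. No member passed a genotype comparison under any alternative; the lowest limma adjusted p was 0.203, and 27 of 656 single values, none called, changed sign. Counts of called list probe sets did move. With quantile normalization, no filter or a robust trend, 0 probe sets of the catalase, dismutase and ascorbate-glutathione list rose by day 4, against 1. With the filter at the 50th percentile, which tests fewer genes, 1 peroxidase probe set fell by day 2 against 2, and 3 fell by day 4 against 6. With array weights 1 methionine sulfoxide reductase probe set and 1 of the thioredoxin list rose by day 4, against 0 each. Leaving out 1 array gave 3 to 7 peroxidase probe sets up on day 2 and 1 to 3 down. It gave 3 to 6 down between day 2 and day 4 and 0 to 1 up (1 without fri(Col)-flc-3 day 0). It gave 1 to 2 up on day 2 and 0 to 1 up on day 4 in the catalase list. It gave 0 to 1 in the thioredoxin list on day 2 and 0 to 1 methionine sulfoxide reductase probe sets up on day 4 (1 without FRI(Sf-2)-FLC(Col) day 0). The cause of these changes was not tested. Without the FRI(Sf-2)-flc-3 day 2 array, day 2 minus day 0 was -2.23 for MSRB5, 0.61 and 0.59 for AT2G38380 and -0.73 for AT4G37520. A comparison of day responses could not be fitted without the FRI(Sf-2)-FLC(Col) array it needs. Day differences were taken within genotypes and genotype was a term of the model, so days were paired by genotype throughout; no block on a replicate number could be fitted, because each group holds 1 array.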
